A study of Mus musculus with 9 samples.

Results

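Gene expression was compared between 3 cell lines grown from T-cell leukaemias of mice carrying a CD2-Lmo2 transgene and 3 samples of wild-type mouse thymus. The lines are named 3, 175 and 261, the thymus samples are wild-type replicates 1, 2 and 3 of the labels, and all 6 are labelled C57BL/6. Values of wild-type thymus are given in that order. They are 6 of the 9 arrays of the series. The other 3, thymus of Lmo2 transgenic mice (replicates 1, 2 and 3), are given here only as levels beside some results. In the transgene, Lmo2 follows the CD2 promoter, which is active in T cells. Each line is 1 culture on 1 array, and the labels do not say that the thymus numbers are separate animals, so the p-values measure the spread between these samples, part of which may be technical. Neither age nor culture conditions nor any sorting of thymus cells is known from the labels. RNA was read on the Illumina MouseWG-6 v2.0 array, and of its 45281 probes the 17898 with a detection p-value under 0.05 on at least 3 of the 6 arrays were kept, which gave 9419 named genes.

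LMO2 is a bridging protein without DNA binding of its own, which joins factors such as LYL1 to the cofactor LDB1. Blood stem and progenitor cells make it and maturing thymocytes do not, and its forced expression in thymus leads to leukaemia in mice. Cells that leave a tissue for continuous growth in culture depend on supplied amino acids and lose the company of other cell types. A shortage of amino acids is read through GCN2 and the transcription factor ATF4, which turns on genes for amino acid uptake, amino acid synthesis and the charging of transfer RNAs. Whole thymus, by contrast, holds T cells at many stages beside dendritic cells, macrophages, B cells and NK cells. Whether the wild-type samples hold this mix is not known from the labels, and their Cd4 levels, given below, were low.

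Upstream sequences are shown for 4 genes of the amino acid response, chosen among those whose upstream bases held the motif marked below. They are not the 4 genes of the response with the largest differences. Chac1, Slc7a11 and Aars were higher in every line and Asns in 2 of the 3. Each stretch is the 250 bases before the annotated start, 5′ to 3′ on the strand of the gene, from RefSeq on build GRCm38.p6. Capitals mark the letters TGATGNAA, a core of the C/EBP-ATF response element that ATF4 binds, or its reverse complement TTNCATCA.
Chac1 (chr2:119350992-119351241, plus strand): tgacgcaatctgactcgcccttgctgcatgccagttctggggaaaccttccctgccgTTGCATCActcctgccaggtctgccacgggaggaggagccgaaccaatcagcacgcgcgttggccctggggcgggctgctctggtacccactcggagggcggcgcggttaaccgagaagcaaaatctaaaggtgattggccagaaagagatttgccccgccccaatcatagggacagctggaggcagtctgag
Slc7a11 (chr3:50443614-50443863, minus strand): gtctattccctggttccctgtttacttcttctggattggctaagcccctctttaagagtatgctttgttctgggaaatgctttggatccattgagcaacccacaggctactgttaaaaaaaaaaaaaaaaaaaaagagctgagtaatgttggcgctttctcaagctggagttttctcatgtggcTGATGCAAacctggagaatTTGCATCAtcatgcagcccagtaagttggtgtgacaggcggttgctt
Aars (chr8:111033592-111033841, plus strand): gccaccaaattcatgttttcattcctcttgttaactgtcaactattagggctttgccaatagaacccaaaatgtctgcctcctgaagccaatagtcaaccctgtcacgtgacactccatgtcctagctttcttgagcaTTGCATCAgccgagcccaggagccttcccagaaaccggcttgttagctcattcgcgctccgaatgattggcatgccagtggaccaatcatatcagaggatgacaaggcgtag
Asns (chr6:7693210-7693459, minus strand): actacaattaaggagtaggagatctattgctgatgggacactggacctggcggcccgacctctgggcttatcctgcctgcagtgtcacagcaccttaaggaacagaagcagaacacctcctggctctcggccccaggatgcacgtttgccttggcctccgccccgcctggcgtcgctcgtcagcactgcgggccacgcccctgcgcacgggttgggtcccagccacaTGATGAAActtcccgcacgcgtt

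On both strands of this window, the motif was found in 7 of the 40 genes matched to RefSeq promoters (17.5%) among the 52 tested members of 4 lists, the ATF4 stress response, amino acid transporters, serine, proline and one-carbon synthesis, and cytosolic tRNA synthetases. The share was 2.39% over the 7710 tested genes with a promoter entry. Of the 7 genes, 4 were called higher in the lines (Chac1, Slc7a11, Aars and Tars), and 3 were not (Asns, Gars and Herpud1). They were 4 of 19 matched members called higher (21.1%) and 3 of 21 matched members not called higher (14.3%). Among all genes called higher in the lines, 2.71% of those matched held the motif. Slc7a11 holds the motif at 2 places, starting 66 and 47 bases before the start. The motif was chosen after the values were seen, and a match is a description of letters only.

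The identity of the samples was checked first. Cd3d, Cd3e, Cd3g and Cd247 of the T cell receptor (TCR) complex, with Thy1 and Cd2, were detected on all 6 arrays. Cd3d read 12.95, 13.31 and 13.43 log2 intensity in lines 3, 175 and 261, against 13.40, 13.27 and 13.36 in wild-type thymus. Cd5 was detected on none of the 6 arrays. Cd8a, a coreceptor chain of thymocytes, was detected on none either, whereas its partner Cd8b1 was high on all 6, at 12.83, 13.46 and 14.47 in the lines and 12.44, 12.99 and 12.73 in wild-type thymus. Cd4, which most cells of a whole thymus carry on their surface, was detected in the 3 lines (5.32, 7.78 and 5.48) and in 1 of the 3 wild-type samples (5.43, 4.86 and 4.80). Lmo2 itself was not detected in the lines (4.39, 4.87 and 4.34), against 7.95, 8.0 and 8.21 in wild-type thymus, at least 6.63-fold lower in the lines (adjusted p = 8.9e-05 by limma, as for every adjusted p here, with Benjamini-Hochberg adjustment over all genes). Such a bound is given wherever a gene was detected on no array of the lower group. It sets the mean of the higher group against the higher of the lowest detected signal of each array and the gene's own value. Transgenic thymus read 6.95, 6.22 and 5.42 for Lmo2. A probe of the native message need not read the transgene, and which part of the message it binds was not tested.

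The share of probes detected was 35.0% to 35.2% in the lines and 39.4% to 43.0% in wild-type thymus, and the median raw intensity was 118.5 to 121.9 in the lines and 122.7 to 155.4 in wild-type thymus. The number of arrays limits the precision.

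Of the 9419 genes, 2501 (26.6%) differed at an adjusted p under 0.05, 1242 (13.2%) higher and 1259 (13.4%) lower in the lines. A gene was said to hold in each line where it was called and every line lay at least 1 log2 unit beyond every wild-type sample. This was so of 814 genes (8.64%), 228 (2.42%) higher and 586 (6.22%) lower. Only 465 of these were detected in both groups, 197 higher and 268 lower. Of all genes tested, 708 passed the filter through 1 group alone, so a difference was built into their selection, and 31 of the genes held higher and 318 of those held lower are among them. When each line was fitted on its own against the 3 thymus samples, under the assumption that a lone line varies like thymus, 1424 genes (15.1%) were called in the same direction in all 3, with 32.1% called in line 3, 36.5% in line 175 and 33.4% in line 261. These 3 comparisons share the same thymus samples and have 1 array on the side of the line, so the count is a description. It ran from 929 to 2484 with 1 array left out, where only the lines that remained had to agree. The counts rest on few arrays. The 814 became 1246 without line 3, where a gene had to hold only in the lines that remained, a looser criterion. The 2501 became 1600, 1180 and 1001 without wild-type replicates 1, 2 and 3. Scaling arrays to 1 median instead of quantile normalization gave 2258 genes higher and 1091 lower, with a median difference over all genes of 0.30 in place of 0.09.

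Cdkn2a, which encodes the cell cycle inhibitor p16INK4a and the p53 activator p19ARF, had the widest separation among genes higher in the lines. It read 11.69, 11.69 and 11.72 log2 intensity in lines 3, 175 and 261, against 5.04, 4.46 and 4.46 in wild-type thymus, where it was not detected. The lines differed among themselves by 0.03 only and stood at least 105-fold above thymus (adjusted p = 1.1e-05). The other kept probes differed by 7.18 and 3.49 on the log2 scale. Transgenic thymus read 5.54, 5.25 and 5.52, detected but low. Its neighbour Cdkn2b, another inhibitor of CDK4 and CDK6, was higher but low in level, at 6.38, 5.99 and 5.60 against 4.57, 4.76 and 4.77 in wild-type thymus (at least 2.00-fold, adjusted p = 0.011). Cdkn1c, the inhibitor p57KIP2, read 7.73, 10.26 and 9.66 in the lines and 5.28, 5.33 and 5.18 in wild-type thymus (log2 difference 3.95 ± 0.61 SE, adjusted p = 0.0056). Cdkn1a, the inhibitor p21 and a target of p53, was split. It was not detected in line 3 (4.64) and was high in lines 175 and 261 (10.72 and 10.15), against 7.96, 8.27 and 8.43 in wild-type thymus. In all, 3 of the 7 CDK inhibitors were called, all higher, and 6 without line 3. Of the 7, 2 (Cdkn2a and Cdkn2b) were detected in no wild-type sample, so a rise was built into their selection. Of 13 genes of p53 and its targets, 2 were called higher, the DNA damage genes Gadd45a (1.97 ± 0.28, adjusted p = 0.0040) and Zmat3 (1.81 ± 0.21, adjusted p = 0.0019), and Sesn1 was called lower (-0.71 ± 0.18, adjusted p = 0.028). Over all genes tested 13.2% were called higher and 13.4% lower, so the p53 list was near the share called higher. Its median log2 difference was -0.05. Without line 3, 4 of the 13 were called higher. Sesn1 was not called without line 175 or without any 1 of the wild-type samples (adjusted p up to 0.118).

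**Figure D1:**
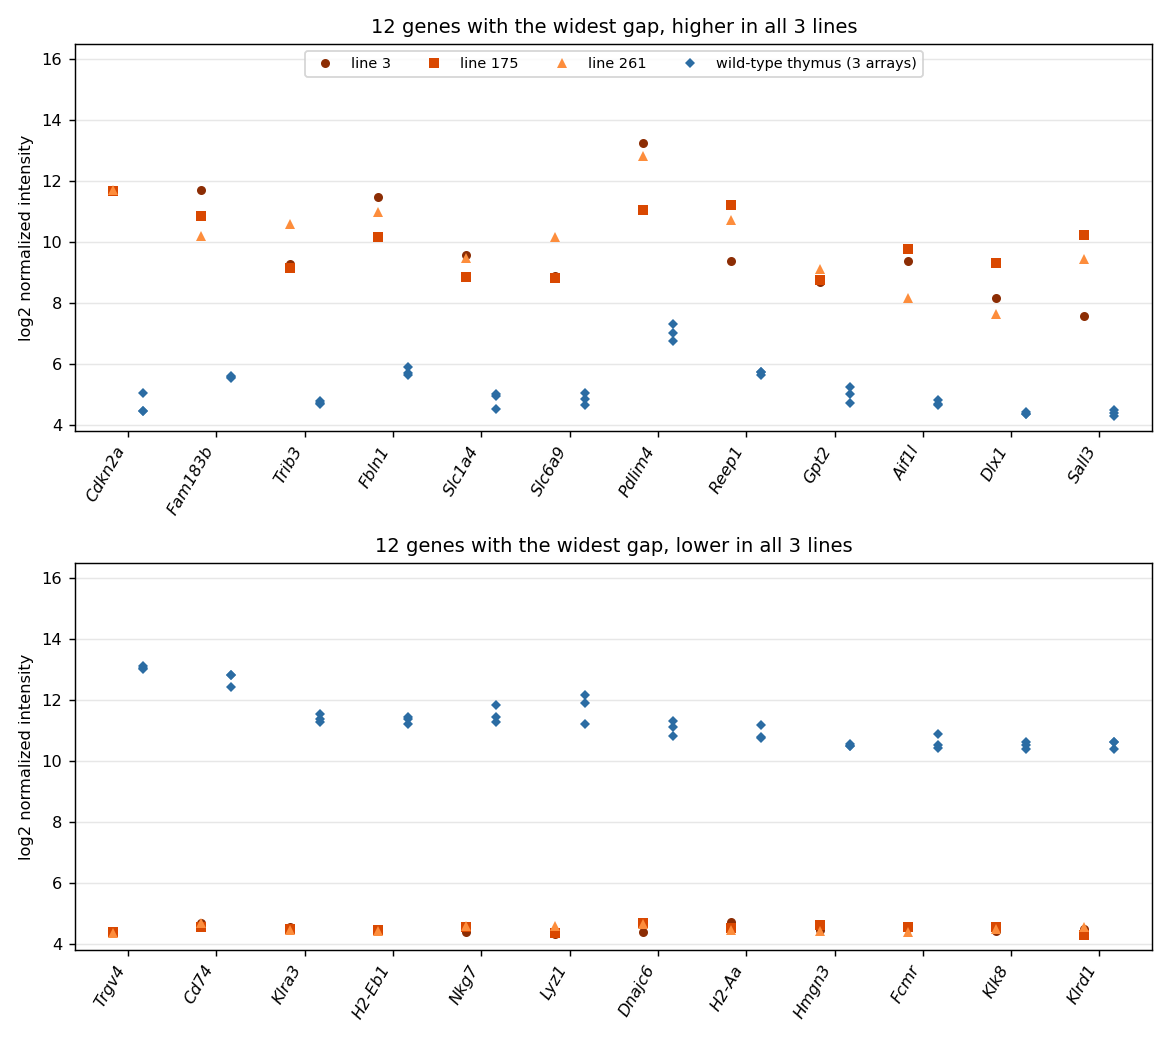
Log2 normalized intensity of the 12 genes with the widest gap higher in the lines (top) and the 12 lower (bottom), ranked by the gap, with the 3 lines left of the 3 wild-type samples for each gene. All 12 genes of the lower panel sit near background in every line, whereas Cdkn2a is at 11.69 to 11.72 in the 3 lines.

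Other genes had gaps among the 12 widest upward. Fam183b, a gene of ciliated cells, read 11.72, 10.86 and 10.20 in the lines against 5.60, 5.59 and 5.53 in wild-type thymus. Fbln1, the extracellular matrix protein fibulin 1, read 11.47, 10.19 and 11 against 5.92, 5.64 and 5.72. Both gaps exceed 4 log2 units, and Fbln1 read 10.05, 10.21 and 10.86 in transgenic thymus, which overlapped the lines. Transgenic thymus overlapped the lines also for Dlx1, a homeobox factor of the forebrain. It was at 8.17, 9.30 and 7.65 in the lines, was not detected in wild-type thymus (4.44, 4.37 and 4.37) and read 8.30, 7.52 and 8.64 in transgenic thymus. Reep1 and Aif1l also stood above wild-type thymus in transgenic thymus, at 8.10 to 9.66 and 7.002 to 8.21. Pdlim4, a cytoskeletal adaptor, read 13.25, 11.06 and 12.81 in the lines, 6.52, 5.67 and 5.22 in transgenic thymus and 7.04, 7.33 and 6.78 in wild-type thymus (log2 difference from wild type 5.33 ± 0.55, adjusted p = 0.0010). Sall3, a zinc finger factor of development, read 7.57, 10.25 and 9.45 in the lines and was not detected in wild-type thymus (at least 17.2-fold, adjusted p = 0.0033), with 5.28, 4.97 and 4.35 in transgenic thymus.

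Genes of the ATF4 response were among those higher in all 3 lines, led by Trib3, Chac1 and Gpt2. Of 16 tested members of the list, 8 were called, all higher, against 13.2% called higher over all genes tested. In 6 of them every line lay at least 1 log2 unit above every thymus sample. Of the 16, 2 (Trib3 and Chac1) were detected in no wild-type sample, so a rise was built into their selection. The median log2 difference of the list was 1.89, against 0.09 over all genes tested. Trib3, a pseudokinase that restrains ATF4 and AKT, read 9.28, 9.15 and 10.61 in the lines and was not detected in wild-type thymus, at 4.70, 4.72 and 4.78 (at least 25.8-fold, adjusted p = 0.00031). The other kept probes of Trib3 differed by less, 2.5 and 2.46 on the log2 scale, so the size is uncertain. Chac1, which degrades glutathione and whose upstream sequence is shown above, read 7.22, 10.15 and 11.06 against 4.996, 4.60 and 4.50, all undetected (at least 22.5-fold, adjusted p = 0.012). The call of Chac1 missed the threshold without wild-type replicate 2 or 3, with adjusted p up to 0.0545. Gpt2, the mitochondrial alanine aminotransferase, was even across the lines, at 8.70, 8.76 and 9.11 against 5.01, 4.72 and 5.24 in wild-type thymus (3.87 ± 0.22, adjusted p = 6.9e-05). Eif4ebp1, the translation repressor 4E-BP1, Cth, which makes cysteine, Sesn2, an inhibitor of mTORC1 under leucine shortage, Ddit4, another mTORC1 inhibitor, and Atf5 were higher as well, Atf5 with adjusted p up to 0.0775 when any array other than line 3 was left out. Atf4 itself was not called, at 12.29, 11.81 and 12.22 in the lines and 11.43, 11.94 and 11.81 in wild-type thymus (0.38 ± 0.23, adjusted p = 0.25), and as background its activity is set largely at translation, which arrays do not read. None of Trib3, Chac1 and Gpt2 reached 6 in transgenic thymus, with Chac1 at 4.55, 4.40 and 4.67.

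Asns, asparagine synthetase, departed from this group in 1 line. It read 11.95 in line 3 and 12.81 in line 261, and 4.45, not detected, in line 175, against 6.01, 5.95 and 6.33 in wild-type thymus. Its range among the lines, 8.36 log2 units, was the widest of the genes detected in at least 1 line, and over the 3 lines it was not called (3.63 ± 2.05, adjusted p = 0.22). Without line 175 its difference was 6.28 and was called. Line 175 read 10.15 for Chac1 and 9.15 for Trib3 of the same list, and 10.43 for the transporter Slc7a11.

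**Figure D2:**
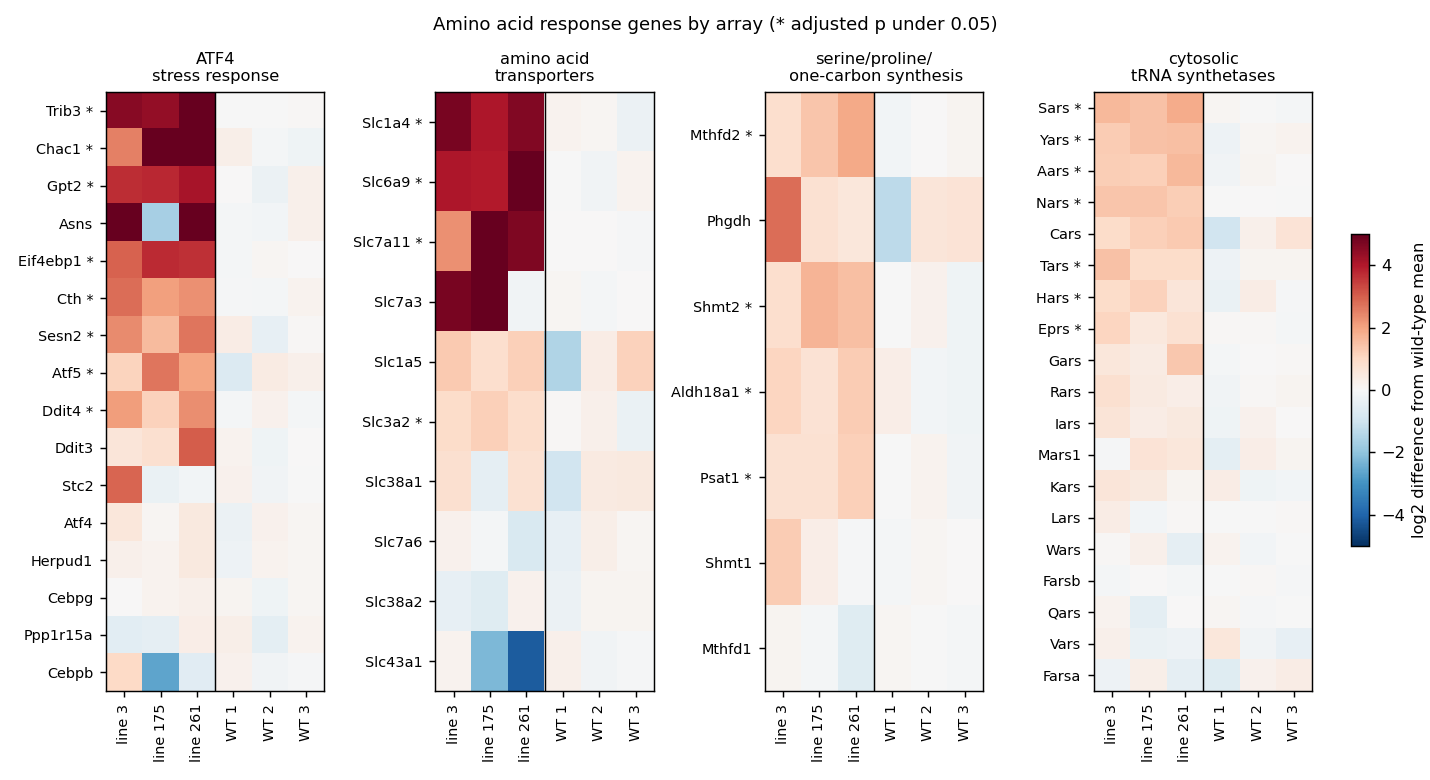
Difference of each array from the wild-type mean (colour, log2) for the tested genes of 4 lists, ordered by mean difference, with the 3 lines left of the 3 wild-type samples; stars mark an adjusted p under 0.05, and colours are capped at 5 log2 units either way. Trib3, Chac1, Gpt2, Slc1a4, Slc6a9 and Slc7a11 are red in all 3 lines, whereas Asns is red in lines 3 and 261 and blue in line 175.

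The calls among genes of uptake, synthesis and tRNA charging were also all in the higher direction. Of 10 amino acid transporters, 4 were called, all higher (median difference 1.05), against 13.2% called higher over all genes tested. Slc7a11 among them was detected in no wild-type sample, so a rise was built into its selection. Slc1a4, a carrier of serine and alanine, read 9.58, 8.88 and 9.48 in the lines against 5.03, 4.96 and 4.55 in wild-type thymus (4.46 ± 0.26, adjusted p = 7.4e-05). Slc6a9, the glycine transporter, read 8.90, 8.81 and 10.17 against 4.86, 4.68 and 5.05 (4.43 ± 0.38, adjusted p = 0.00046). Slc7a11, the cystine importer, was lowest in line 3 (7.18) and higher in lines 175 and 261 (10.43 and 9.57), and was not detected in wild-type thymus, at 4.92, 4.90 and 4.85 (at least 16.8-fold, adjusted p = 0.010). Slc3a2, the heavy chain that brings several of these carriers to the membrane, rose by 0.99 ± 0.22 (adjusted p = 0.021), a call missed without line 175 or wild-type replicate 1 or 3. Slc7a3, a carrier of arginine and lysine, was high in lines 3 and 175 only, at 9.84, 10.52 and 4.90 in lines 3, 175 and 261 against 5.18, 4.98 and 5.09 (adjusted p = 0.11).

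Among 7 enzymes of serine, proline and one-carbon synthesis, 4 were called higher, namely Mthfd2 and Shmt2 of mitochondrial folate metabolism, Aldh18a1 of proline synthesis and Psat1 of serine synthesis, with differences of 0.92 to 1.39. None of them had a gap of 1 log2 unit, and 2, 1 and 0 were called without wild-type replicates 1, 2 and 3. Among 19 cytosolic tRNA synthetases, which load amino acids onto tRNAs, 7 were called, all higher, against 13.2% over all genes tested. Sars, for serine, read 10.32, 10.18 and 10.56 in the lines and 8.80, 8.69 and 8.62 in wild-type thymus (1.65 ± 0.18, adjusted p = 0.0015). Yars, Aars and Nars, for tyrosine, alanine and asparagine, rose by 1.41 ± 0.19, 1.35 ± 0.20 and 1.33 ± 0.16. The 12 others were not called, Farsa, Farsb, Vars and Qars among them. The count of 7 was 4 without any 1 of the wild-type samples and 12 with arrays scaled to 1 median.

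The unfolded protein response, which shares ATF4 with amino acid shortage, did not rise as a list. Of 13 members, Edem1, which helps clear misfolded proteins, was called higher (1.69 ± 0.32, adjusted p = 0.011). Xbp1, the transcription factor that drives secretory capacity, was called lower, at 10.50, 10.27 and 10.20 in the lines against 12.01, 12.15 and 12.16 in wild-type thymus (-1.78 ± 0.18, adjusted p = 0.00086). Its target Dnajb9 was lower by a like amount (-1.74 ± 0.28, adjusted p = 0.0062), and so was Pdia4 (-0.68 ± 0.20, adjusted p = 0.049). With 1 array at a time left out, Pdia4 kept its call only without line 261, and Edem1 lost it without wild-type replicate 3 (adjusted p = 0.0519). Of 9 genes of glutathione synthesis and NRF2, the sensor of oxidative stress, 4 were called, all higher. The shares over all genes tested were 13.2% higher and 13.4% lower. Hmox1 among the 9 passed the detection filter through the lines alone, so a rise was built into its selection. Hmox1, heme oxygenase 1, read 6.94, 8.01 and 7.92 in the lines and was not detected in wild-type thymus (at least 6.22-fold, adjusted p = 0.00090). Gsta4, which conjugates glutathione to lipid peroxidation products, read 8.06, 9.07 and 9.27 against 5.96, 4.92 and 5.54 (3.33 ± 0.40, adjusted p = 0.0021). Gss, glutathione synthetase, and Prdx1, a peroxiredoxin, rose by 1.93 ± 0.41 and 0.75 ± 0.18. Without wild-type replicate 2 or 3, 2 of the 4 were called.

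Of 18 genes of cholesterol synthesis and uptake, 10 were called, all higher, and none lower, against 13.2% higher and 13.4% lower over all genes. Pmvk, Lss and Cyp51, enzymes of the early, middle and late pathway, were higher by at least 1 log2 unit in each line. Pmvk read 9.03, 9.16 and 8.65 in the lines and 6.77, 6.83 and 6.15 in wild-type thymus (2.37 ± 0.26, adjusted p = 0.0013). The others called were Mvd, Nsdhl, Tm7sf2, Msmo1, Fdps, Srebf2 and Sqle, at 0.73 to 1.45. The count was 4 and 5 without wild-type replicates 2 and 3. Oxidative phosphorylation had 6 of 27 members called, all higher, with a median of 0.40. Its count was 3 without line 175, 1 and 0 without wild-type replicates 2 and 3, and 23 with arrays scaled to 1 median. Cell cycle genes were mixed, with 5 of 26 called higher, Ccne1, Birc5, Aurka, Plk1 and Aurkb, and 1 lower, Ccnd2, and a median of -0.01, which was 0.60 with arrays scaled to 1 median. The 5 became 3, 1 and 0 without wild-type replicates 1, 2 and 3, and 3 without line 175. Ccnd2 lost its call without line 175, line 261 or any 1 of the wild-type samples (adjusted p up to 0.12).

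**Figure D3:**
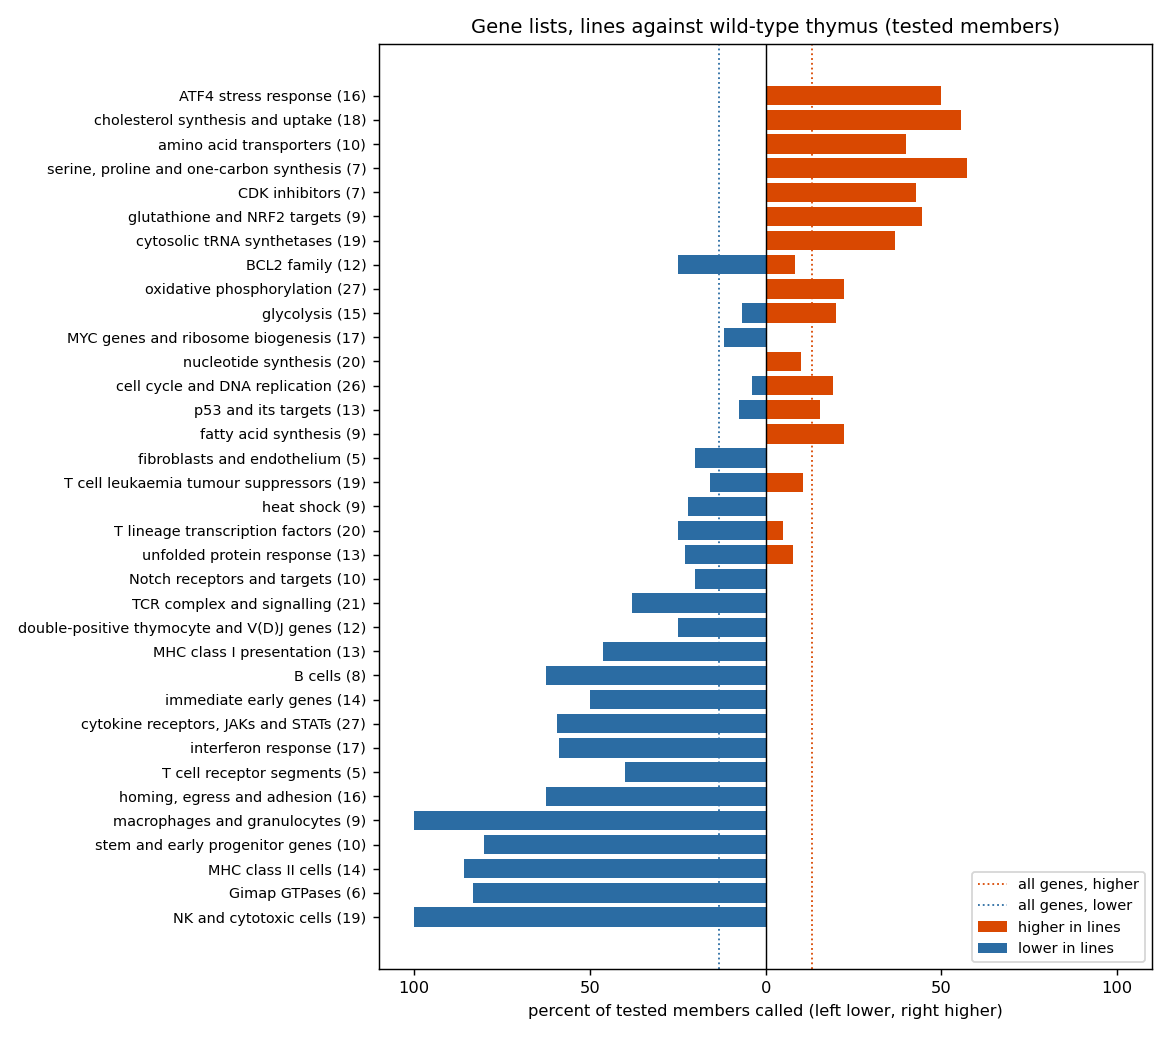
Percent of the tested members of each list (number in brackets) with an adjusted p under 0.05, lower in the lines to the left and higher to the right, ordered by median log2 difference. The dotted lines mark the shares over all 9419 genes, 13.4% lower and 13.2% higher. The lists of amino acid, cholesterol and glutathione genes are among those beyond the upper mark. Also beyond it are CDK inhibitors, p53, fatty acid synthesis, glycolysis, oxidative phosphorylation and cell cycle. Those of NK, macrophage, class II and progenitor genes are among those beyond the lower one.

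Genes that mark other cells of the thymus, or T cells of another receptor type, were among those with the largest decreases. Trgv4, a variable segment of the T cell receptor gamma chain used by gamma-delta T cells, had the widest gap of all genes. It read 4.41, 4.39 and 4.36 in the lines, all undetected, against 13.11, 13.06 and 13.03 in wild-type thymus (at least 214-fold lower, adjusted p = 3.2e-06). Cd74, the invariant chain that chaperones MHC class II, read 4.68, 4.56 and 4.68 in the lines, undetected, against 12.83, 12.41 and 12.81 (at least 164-fold lower, adjusted p = 6.1e-06). The other kept probes of Cd74 differed by -8.46 and -3.94 on the log2 scale, so the size is uncertain. In such bulk samples fewer cells of a type and less RNA per cell cannot be told apart.

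All 19 tested markers of NK and cytotoxic cells were called lower, and 15 were detected in no line. The mean log2 intensity of the list ran from 4.85 to 4.92 in the lines and from 8.876 to 8.999 in wild-type thymus. Nkg7, a protein of cytotoxic granules, read 4.38, 4.54 and 4.57 in the lines against 11.83, 11.43 and 11.26 in wild-type thymus (at least 72.5-fold lower, adjusted p = 1.0e-05). All 9 markers of macrophages and granulocytes were lower and detected in no line, with 5 called without line 175, line 261 or wild-type replicate 1. Lyz1, a lysozyme of macrophages, was at least 86.8-fold lower (adjusted p = 1.5e-05). Of 14 genes of MHC class II cells, 12 were lower, 10 of these detected in no line. H2-Ab1, the class II beta chain, was detected in all 3 lines, at 5.44, 9.02 and 8.36, against 12.26, 11.84 and 11.97 in wild-type thymus. H2-DMa, which loads peptide onto class II, was also detected in the lines, at 7.05, 7.63 and 8.45 against 10.60, 10.42 and 10.50. Of 8 B cell markers 5 were lower, Cd79b by at least 40.0-fold. For a list whose members passed the detection filter through wild-type thymus a decrease was built in, and the part of these cells in the other decreases was not tested.

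Several lists of genes that T cells themselves use also held calls in the lower direction, where 13.4% of all genes tested were called lower. In these lists too, members detected in no line had a decrease built into their selection. Of 16 genes of homing, egress and adhesion, 10 were called lower and none higher, with a median difference of -2.11. Cd53, a tetraspanin of leukocytes, read 6.45, 4.54 and 6.06 in the lines and 10.02, 10.42 and 10.15 in wild-type thymus (-4.52 ± 0.48, adjusted p = 0.0012). Klf2, the factor that drives exit from the thymus, read 7.87, 6.20 and 5.57 against 10.23, 9.57 and 9.81 (-3.32 ± 0.57, adjusted p = 0.0081). Itgb7 and Itgae, the chains of the integrin that binds E-cadherin, were lower by 2.82 ± 0.60 and 3.63 ± 0.95 on the log2 scale, and with 1 array at a time left out Itgae stayed called only without line 261. The count was 6, 5 and 4 without wild-type replicates 1, 2 and 3.

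Of 27 cytokine receptors, JAKs and STATs, 16 were lower and none higher (median -1.50), 11 of them in each line. Stat4, which carries the IL-12 signal, was not detected in the lines, at 4.67, 4.65 and 5.01 against 9.57, 9.53 and 9.61 in wild-type thymus (at least 18.99-fold lower, adjusted p = 1.5e-05). Cish and Socs2, feedback inhibitors that STAT5 turns on, were not detected in any line and at least 11-fold and 4.25-fold lower. Il7r, the receptor for the cytokine that early thymocytes depend on, was kept in part by 1 line. It read 5.05 and 4.75 in lines 3 and 261, undetected, and 9.12 in line 175, against 11.05, 11.16 and 11.16 in wild-type thymus (-4.82 ± 1.10, adjusted p = 0.022, and up to 0.0794 without any 1 of the wild-type samples). Jak1, Jak2, Jak3 and Tyk2 were all lower, by 1.37 to 2.43 on the log2 scale. The list held 9 and 10 calls without wild-type replicates 2 and 3.

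The Gimap genes, a cluster of GTPases that support lymphocyte survival, had 5 of 6 tested members lower, 4 of them in each line, with a count of 3 without any 1 of the wild-type samples. Gimap8 read 5.01, 4.84 and 5.83 in the lines against 9.99, 10.08 and 10.03 in wild-type thymus (-4.81 ± 0.28, adjusted p = 7.8e-05). Gimap6 and Gimap1 were uneven, with Gimap6 detected in line 261 only (7.37) and Gimap1 at 8.07 and 8.66 in lines 3 and 261 but 4.75 in line 175. In the BCL2 family, Bcl2, which blocks cell death, was not detected in the lines, at 5.09, 4.69 and 5.03 against 9.31, 9.004 and 9.24 (at least 14.5-fold lower, adjusted p = 2.9e-05). Its 4 other kept probes differed by -2.16, -4.84, -5.04 and -4.11. Bcl2a1d, a related survival gene, was at least 12.02-fold lower (adjusted p = 1.5e-05). Of 12 members of the family 3 were lower, against 13.4% of all genes tested, and 1, Bad, was higher (0.96 ± 0.24, adjusted p = 0.029). Bad was not called without line 175, line 261 or any 1 of the wild-type samples, with adjusted p up to 0.114. Bcl2a1d and Bcl2a1b are near-identical copies, so their probes may read each other's message.

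For MHC class I presentation, 6 of 13 genes were lower. Nlrc5, the transactivator of class I genes, was not detected in the lines, at 4.55, 4.39 and 4.54 against 8.61, 8.03 and 8.35 in wild-type thymus (at least 8.02-fold lower, adjusted p = 5.6e-05). H2-K1, a classical class I heavy chain, read 7.10, 5.34 and 5.21 against 10.75, 11.09 and 11.04 (-5.08 ± 0.50, adjusted p = 0.00083). Its other probes differed by -1.11 and -0.06, so the size is uncertain. Class I genes are near-identical in sequence. H2-D1 stayed detected, at 11.55, 9.78 and 8.91 against 13.08, 12.54 and 12.86. Interferon response genes had 10 of 17 members lower, led by Gbp2 and Oasl2, and 7 of 14 immediate early genes were lower, Egr1 among them at 7.17, 6.49 and 7.20 against 10.89, 10.94 and 11.37. Neither list held a gene called higher. The 10 were 6 without any 1 of the wild-type samples, and the 7 were 4 without replicate 3.

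In the T cell receptor complex and its signalling genes the differences were smaller. Of 21 genes, 8 were lower, all without a gap of 1 log2 unit. Cd3e read 12.34, 12.37 and 12.59 in the lines against 13.25, 13.24 and 13.36 in wild-type thymus (-0.85 ± 0.17, adjusted p = 0.015). Rasgrp1, Themis and Lcp2, which relay the signal, were lower by 0.99 to 1.10 on the log2 scale. The count was 2, 1 and 0 without wild-type replicates 1, 2 and 3. With arrays scaled to 1 median it was 3. Of 20 T lineage transcription factors 5 were lower, against 13.4% of all genes tested. The 5 were 3 and 2 without wild-type replicates 2 and 3. Bcl11b, the factor that seals T cell commitment, was lower by 1.26 ± 0.21 on the log2 scale (adjusted p = 0.0079) and still read 12.03, 11.70 and 12.35 in the lines against 13.26, 13.30 and 13.30. Sox13, a factor of gamma-delta T cells, was detected in 1 line only, at 5.18, 4.60 and 5.51 against 8.50, 8.18 and 8.08 (-3.15 ± 0.28, adjusted p = 0.00049). Myb, Runx1 and Ets1 were lower by 0.82 to 1.54. With 1 array at a time left out, Myb lost its call in 1 case, Runx1 in 2 and Ets1 in 5 (adjusted p up to 0.113). Ikzf3, the lymphoid factor Aiolos, was the 1 member called higher, at 8.85, 8.73 and 10.11 against 6.76, 6.96 and 7.005 (2.32 ± 0.38, adjusted p = 0.0069).

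Of 10 tested stem and early progenitor genes, 8 were lower, 7 of them in each line. Of the 10, 6 were detected in no line, so a decrease was built into their selection. Kit, the stem cell factor receptor, read 4.35, 4.50 and 4.38 in the lines, undetected, against 11.74, 12.84 and 10.49 in transgenic thymus and 10.29, 9.32 and 9.60 in wild-type thymus (at least 21.3-fold below wild type, adjusted p = 4.3e-05). Cpa3, a mast cell and progenitor protease, and Nfe2, a factor of early blood cells, were at background in each line as well, at least 34.6-fold and 13.7-fold below wild type. Hoxa7 was at background in the lines (4.42, 4.37 and 4.53) and in transgenic thymus (4.79, 4.56 and 4.84), against 8.38, 9.31 and 8.62 in wild-type thymus. Lyl1 and Cd44 were not called, and line 3 kept both. Lyl1, a partner of LMO2, read 8.22 in line 3 and 4.99 and 4.82 in lines 175 and 261, against 6.80, 6.52 and 6.67. Cd44, an adhesion receptor of the earliest thymocytes, read 9.85, 4.50 and 4.59 against 9.01, 9.20 and 9.42.

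The lines were less alike than the thymus samples. Over the tested genes the arrays of lines correlated at r = 0.906 to 0.936 across genes, and those of wild-type thymus at 0.977 to 0.992. The median range was 0.64 log2 units among the lines and 0.39 among wild-type samples, and 823 genes spanned over 2 log2 units among the lines, against 35 among the wild-type samples. Line 3 differed from the other two in several thymocyte genes, chosen here after their values were seen. Notch1, the receptor that directs T cell fate, was not detected in line 3 (4.95), and read 11.17 and 11.02 in lines 175 and 261, against 11.79, 11.87 and 12.17 in wild-type thymus. Notch3, Hes1, Dtx1 and Ptcra, which Notch signalling turns on, were also undetected in line 3 and present in the other two. Ptcra, the pre-TCR alpha chain, read 11.08 and 10.46 in lines 175 and 261, above the 8.60, 8.10 and 8.29 of wild-type thymus. Rag1 and Dntt, which cut and extend receptor genes during V(D)J recombination, read 4.88 and 4.72 in line 3, whereas Rag1 was at 10.97 and 11.23 and Dntt at 10.83 and 10.56 in lines 175 and 261.

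Single lines also stood apart at other genes. Mt1, a metallothionein, was high in line 3 only (11.77, against 6.79, 6.43 and 6.42 in wild-type thymus). Cd81, a tetraspanin, was undetected in line 175 only (4.60, against 10.86, 11.11 and 10.87). Ckb, brain creatine kinase, was undetected in line 261 (4.90) and high in line 175 (12.24), against 9.40, 9.18 and 9.09 in wild-type thymus. Ccnd1, cyclin D1, was at 11.09 in line 261 and 5.43 and 5.55 in lines 3 and 175, against 7.64, 7.72 and 7.99. Cyclin D2, Ccnd2, was kept by line 3 (10.25) and undetected in lines 175 and 261 (4.66 and 4.38), against 11.65, 11.85 and 12.13. Each line was 1 array, so these differences among lines carry no test. Sex-linked genes differed as well. Eif2s3y of the Y chromosome read 9.56 in line 3 and 4.36 and 4.46 in lines 175 and 261, against 9.44, 9.96 and 9.96 in wild-type thymus. An Xist probe read 4.48, 5.27 and 4.45 in lines 3, 175 and 261, 12.43, 11.21 and 4.58 in transgenic thymus and 4.42, 4.49 and 4.64 in wild-type thymus, and was detected in transgenic replicates 1 and 2 alone. Line 175 was detected at the other Xist probes, at 5.47, 6.02 and 5.86, and lines 3 and 261 were not. The value of 6.02 was the highest in a line over the 4 Xist probes. A probe of Kdm5d, also Y-linked, read 6.98, 4.37 and 4.69 in lines 3, 175 and 261, against 7.55, 8.45 and 7.84 in wild-type thymus. By contrast, 1 probe of the Y-linked Uty was detected in all 3 lines (5.85, 5.48 and 5.68) and in wild-type thymus (6.01, 5.54 and 5.09). Lines 175 and 261 were thus low for Eif2s3y and Kdm5d, though not for that Uty probe, without the Xist level of those transgenic samples. The part of sex in the differences was not tested.

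**Figure D4:**
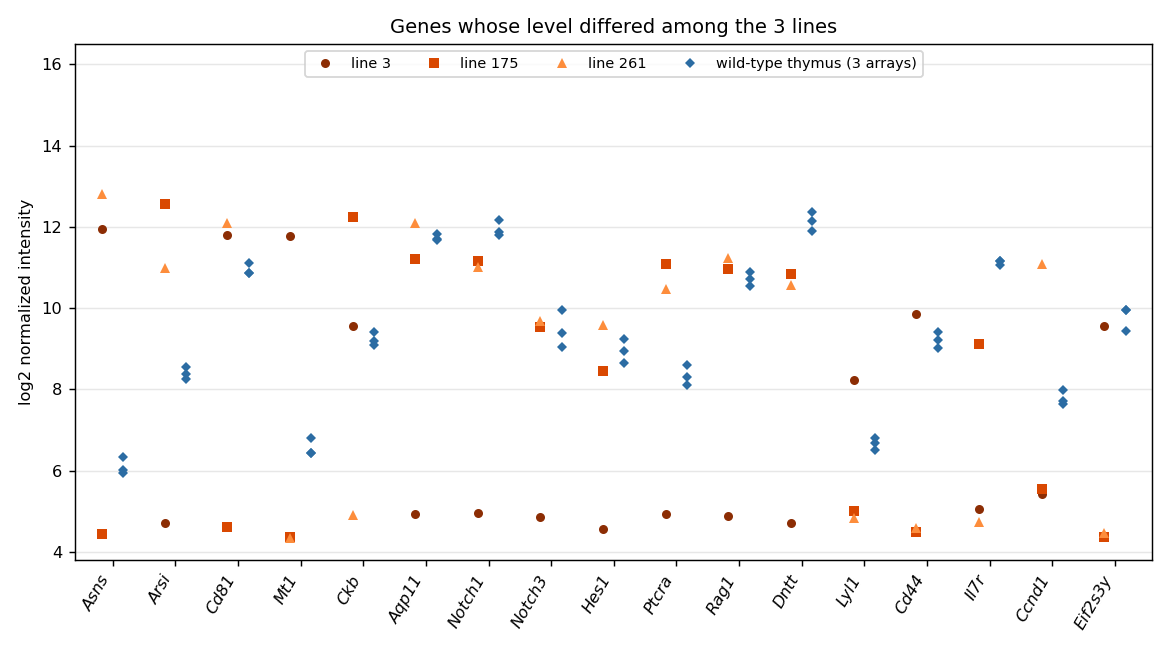
Log2 normalized intensity of 17 genes whose level differed among the lines, with the 3 lines left of the 3 wild-type samples for each gene; the genes were chosen after their values were seen. Line 3 is near background for Notch1, Notch3, Hes1, Ptcra, Rag1 and Dntt, where lines 175 and 261 are not, and line 175 alone is near background for Asns and Cd81.

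Differences in the lines were also uneven across chromosomes. For each array the difference of every gene from the wild-type mean was taken over the 7043 genes detected on all 6 arrays that the RefSeq table places on chromosomes 1 to 19 or X, and each chromosome's median was set against the array's own median. Wild-type samples stayed between -0.05 and 0.06 on every chromosome. In line 3, chromosomes 15, 14 and 11 stood at 0.46, 0.42 and 0.35, and no other chromosome exceeded 0.2 in either direction. In line 261, chromosomes 15, 14, 11, 6, 5 and 4 stood at 0.35, 0.27, 0.24, 0.22, 0.21 and 0.21. In the same line chromosomes 3, 8, 9, 10, 12, 18, 19 and X stood at -0.24, -0.25, -0.24, -0.26, -0.21, -0.26, -0.28 and -0.35. In line 175 no whole chromosome exceeded 0.2 in either direction. Transgenic thymus was at 0.16, 0.49 and 0.46 on chromosome 15 in replicates 1, 2 and 3, of which the first did not exceed 0.2. Its other chromosomes lay between -0.08 and 0.12, somewhat wider than in wild-type samples. The share of genes called higher in the lines was 22.0% on chromosome 15, 19.1% on chromosome 14 and 19.9% on chromosome 11, against 13.2% over all genes.

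Chromosome 14 of line 175 was split. The median difference from the wild-type mean was 0.86 over the first 124 of its genes in chromosome order and -0.44 over the last 124, against 0.56 and 0.63 in line 3 and 0.42 and 0.39 in line 261. In blocks of 20 genes, line 175 stood at 1.19 in the block from Pbrm1 to Ghitm, 0.64 in that from Apex1 to Psmb5, 0.17 in that from Acin1 to Nop9 and -1.11 in that from Kctd9 to Med4. The first and last part of a chromosome, split at its middle gene, differed by at most 0.12 in wild-type samples and, chromosome 14 set aside, by at most 0.29 in line 175. DNA copy number was not measured here, and the comparison by chromosome was chosen after seeing the data.

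**Figure D5:**
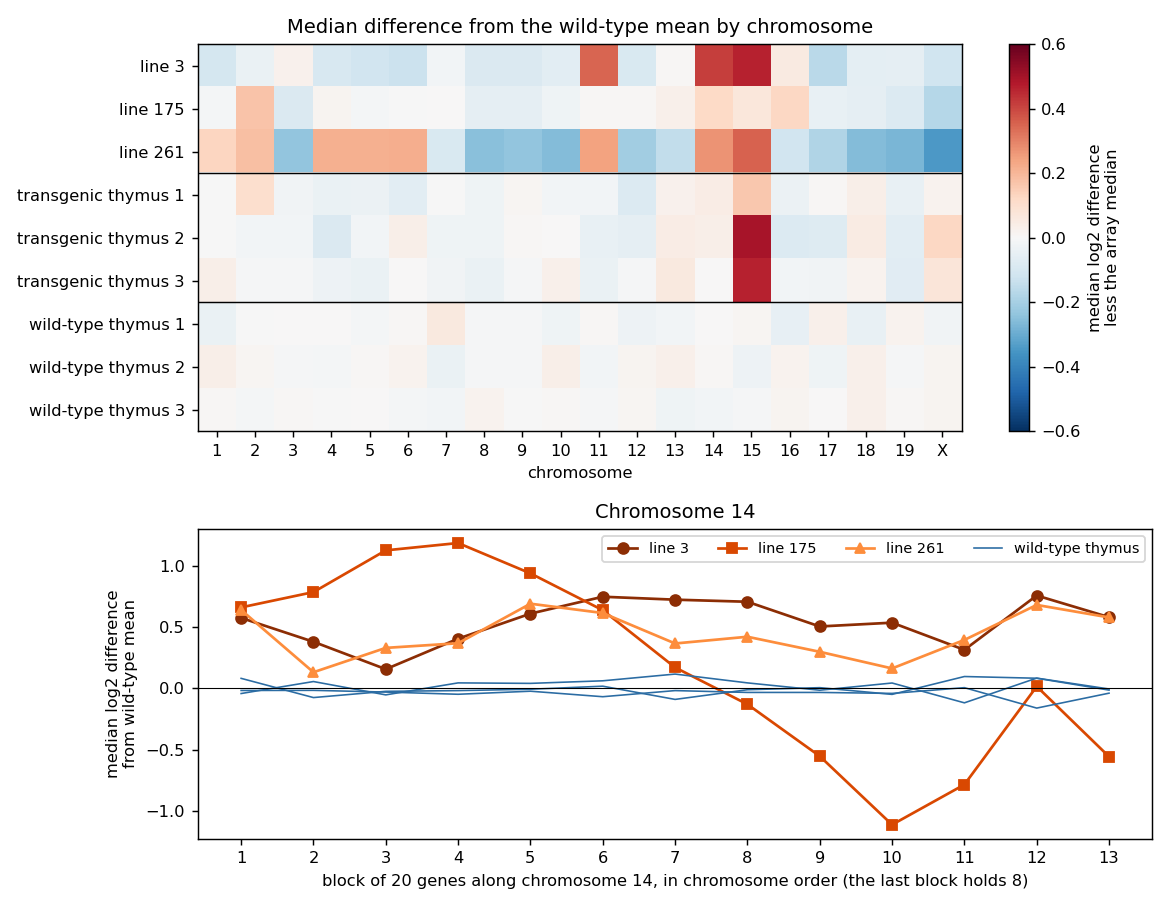
Top, median log2 difference from the wild-type mean for each chromosome less the array's own median (colour), with lines above transgenic and wild-type thymus. Bottom, median log2 difference from the wild-type mean in blocks of 20 genes along chromosome 14 for the 3 lines and the 3 wild-type samples; line 175 lies above the wild-type samples in the first 7 blocks and below them in blocks 8 to 11 and 13.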

How the data were processed

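The authors deposited raw bead intensity per probe for 9 arrays and a detection p-value per probe against negative controls, per the file headers. A second deposited table holds log2 values with 1 distribution on all arrays, equal to the series' value table. Per the submitters' processing notes the tools were BeadStudio and limma, with no version or genome build stated. Here the raw intensities of all 9 arrays were background-corrected, quantile normalized and logged with neqc (limma 3.58.1, R 4.3.3, offset 16). The authors' log2 values correlated with these at r = 0.999, with the same scale and direction, and the median over tested genes of the value used here minus the authors' value was -0.35.

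Probes with a detection p-value under 0.05 on at least 3 of the 6 arrays were kept. Of 17898, 15065 had 1 gene symbol in the platform annotation, which can be old, and 2833 had none or several. A gene was read from its kept probe of highest mean (3763 genes had others). Lines were compared with wild-type thymus by lmFit and eBayes, two-sided, with Benjamini-Hochberg adjustment over 9419 genes and no covariate. A fit with 4 groups gave each line its own test, with spread from wild-type thymus alone. On simulated data with 9419 genes, log2 changes of 1, 2, 3 and 4 were recovered in 24%, 72%, 86% and 96% of cases, with 6 false calls. The simulation gave both groups the same spread for each gene and changed only a small part of the genes, unlike the data. These figures therefore need not hold for the comparison of lines with thymus. Genes named in the text were Lmo2 and Cdkn2a, Cd74, Trgv4 and Trib3, the 12 widest gaps in each direction, members of the gene lists, and the genes with the widest range among lines; others are said to be chosen after their values were seen. T identity genes Cd4, Cd8a and Cd8b1 were added after seeing the data. The members and lists were chosen with earlier results of these data known. Alternatives covered background correction, scaling, offset, detection filter, probe choice, model and each array left out. Sample numbers 1 to 3 are not stated to pair lines with thymus. Deviations from the group means correlated at -0.09, -0.01 and -0.03 between samples of like number, which cannot decide whether any were processed together.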

Additional observations from a re-analysis of the deposited data

Results flagged for a closer look

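Among probes without a single gene symbol, which the comparison by gene does not use, 1086 of 2833 (38.3%) were called between lines and wild-type thymus, 368 higher and 718 lower.

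The fit of each line on its own placed 223 genes past the threshold upward in 1 line and downward in another. Each line is 1 array, the spread comes from wild-type thymus alone and the lines share those samples, so this count is a description. The widest such splits, by the smaller of the rise and the fall, were of Arsi, Sapcd1 and Ckb, at 3.69, 3.06 and 3.02 log2 units. Arsi, an arylsulfatase, read 4.70, 12.56 and 10.98 in lines 3, 175 and 261 against 8.38, 8.54 and 8.26 in wild-type thymus. Sapcd1 read 5.77, 11.90 and 4.85 against 9.07, 8.76 and 8.70. The difference between lines was not tested, since each line was 1 array.

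In transgenic thymus, which the comparison does not use, genes of chromosome 15 lay above wild-type thymus by a median of 0.55 in replicate 2 and 0.47 in replicate 3 on the log2 scale, and by 0.13 in replicate 1. The lines stood at 0.63, 0.22 and 0.49.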

How the results depend on the processing

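Counts of calls and single genes both moved with the arrays used. Of 158 named genes called, 69 lost the call without some 1 array, 41, 59 and 68 of them without wild-type replicates 1, 2 and 3, and 40 lost it with the replicate block. Without background correction 363 genes held in each line, 62 higher and 301 lower. Scaling to 1 median gave 2258 genes higher, 403 held higher and 2140 called in every line by the fit of each line. An offset of 50 gave 125 held higher. With the sample number as a replicate block, a pairing that the labels do not state, 1460 genes were called, 617 higher and 843 lower. A gap of at least 2 log2 units left 295 genes (44 higher, 251 lower), and no minimum gap gave 2501 (1242 and 1259). Leaving out 1 array at a time gave 1001 to 2946 called (351 to 1461 higher, 650 to 1485 lower), 771 to 1246 held (222 to 448 higher, 549 to 798 lower), 929 to 2484 called in every line, and -3.69 to -3.43 for Lmo2. The held and every-line criteria were applied only to the arrays that remained, so their ranges do not rest on 1 fixed criterion. The cause of these shifts was not tested. Among named genes 4 turned direction in a call: Farsb to 0.72 with median scaling, Tcf12 to -0.92 with the mean of all probes, Mt1 to -2.19 without line 3 and Cd81 to 1.01 without line 175. Leaving out line 261 instead gave 1.52 for Mt1 and -2.74 for Cd81. Cdkn2a, Trib3, Cd74 and Trgv4 were called under every alternative run. The fit of each line was not run with all 9 arrays, the block, array weights or the trended and robust test.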

Other observations

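Single genes outside the lists, chosen after their values were seen, were also higher in each line, and stand for no group. Wnt8b, a Wnt ligand of the forebrain, read 7.81, 8.41 and 7.71 in lines 3, 175 and 261 against 5.08, 4.97 and 4.9994 in wild-type thymus (2.96 ± 0.23, adjusted p = 0.00030). Olig3 and Foxb1, neural transcription factors, were detected in all 3 lines and in no wild-type sample, at least 5.53-fold and 4.18-fold higher. Hemgn, hemogen of blood progenitors, was at least 5.05-fold higher and read 5.86, 7.15 and 7.19 in transgenic thymus. Brdt, a testis bromodomain protein, rose by 2.56 ± 0.27 and Calr3, a testis calreticulin, was at least 3.95-fold higher. Cyp11a1, which starts steroid synthesis, rose by 2.63 ± 0.35, and Tg, thyroglobulin, was at least 5.47-fold higher.

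Another pair of genes was chosen in the same way. Cox6a2, a muscle subunit of cytochrome oxidase, read 10.17, 12.09 and 12.51 in the lines, 6.06, 6.74 and 5.47 in transgenic thymus and 7.36, 7.17 and 7.19 in wild-type thymus (4.35 ± 0.58 against wild type, adjusted p = 0.0031). Bcat1, which transfers the amino group of leucine, isoleucine and valine, rose by 2.73 ± 0.26 (adjusted p = 0.00069). Every line lay above every wild-type sample for each gene named here. Such a lack of overlap, in either direction, was found for 4465 of the 9419 genes tested (47.4%), so it does not set these genes apart.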
